A study of Mus musculus with 6 samples.

Results

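The Notch pathway was followed through 10 genes: the receptor genes Notch1, Notch2 and Notch3, the ligand genes Jag1, Jag2 and Dll1, the target genes Hes1, Hey1 and Heyl, and Rbpj, whose product carries the signal on DNA. They were found by gene symbol, and all 10 are among the 24421 symbols of the count table and passed the filter on low counts. RNA was sequenced from C2C12 cells, a mouse myoblast line whose cells fuse into myotubes when serum is withdrawn. The knockdown cells received a lentivirus with a short hairpin RNA against Gaa, the gene of the lysosomal enzyme acid alpha-glucosidase (shGAA, n = 3 libraries). The controls received a lentivirus with a hairpin of scrambled sequence (shScrambled, n = 3 libraries). Cells of both groups were grown in 10% fetal bovine serum, selected with puromycin and differentiated in 2% horse serum with 4.5 g/l glucose. The labels name all 6 samples myotubes, carry an unexplained word "Fed" in both groups, and give neither the number of hairpins nor whether libraries within a group were grown separately. Error estimates and p-values thus rest on library-to-library spread alone, part of which may be technical.

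Notch signalling passes between cells that touch. A ligand of the Jagged or Delta family on one cell binds a Notch receptor on its neighbour, gamma-secretase then cuts the receptor within the membrane, and the freed intracellular part enters the nucleus. There it joins RBPJ and a Mastermind coactivator and switches on genes of the Hes and Hey families, which encode basic helix-loop-helix repressors. In muscle, Notch activity is known for keeping satellite cells and myoblasts undifferentiated, and it declines as myoblasts fuse.

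The libraries held 9224038 to 10430270 counts, and Gaa was lower in every shGAA library, at 47.5 to 51.9 CPM (the count over the TMM-scaled library size, on a common scale) against 106 to 124 CPM in shScrambled. The library shScrambled 1 stood apart. Set against shScrambled 2 and 3, its counts gave chi-square values, divided by their degrees of freedom, of 6.08 and 5.50, compared with 1.98 to 2.62 for the other pairs within a group. Of the 10 Notch genes, 8 were higher in shScrambled 1 than the mean of the other 2 controls, by 0.77 on the log2 scale for Notch3, 0.50 for Heyl and 0.39 for Jag1, and the median absolute difference over all tested genes was 0.12. The signed median over all tested genes was 0.00. Some other lists were also higher in that library, with median differences of 0.59 for the interferon-response genes, 0.37 for the differentiated muscle markers and 0.15 for the proliferation markers. The shift was thus not limited to Notch genes. Medians were 0.07 for the myoblast, 0.02 for the endothelial, -0.02 for the leukocyte and -0.25 for the smooth muscle and pericyte markers. The calls of the 10 genes are therefore also given without this library.

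RNA of Notch2, Jag1, Hey1 and Heyl was higher under the Gaa hairpin, and RNA of Notch1 and Jag2 was lower. Heyl changed most, with 2.20 times the control level. Among the receptors 1 called gene was higher and 1 lower, as among the ligands, while both called target genes were higher. Of the 10 genes, 4 rose, 2 fell and 4 did not pass the test (edgeR's quasi-likelihood test, adjusted p under 0.05 over 11801 tested genes). Over all tested genes, 18.5% were called higher, 19.7% lower and 38.2% in either direction. Higher genes were 48.4% of all calls under TMM scaling and 60.0% when libraries were scaled by their totals alone, and the counts of called Notch genes were the same under both. The median log2 fold change of the 10 genes was 0.15, against 0.01 over all tested genes. Without shScrambled 1, 5 genes rose and 2 fell. The log2 fold changes were then -0.77 ± 0.06 for Notch1, 0.51 ± 0.05 for Notch2, 0.80 ± 0.07 for Jag1, -0.63 ± 0.12 for Jag2 and 0.71 ± 0.10 for Hey1. In RNA from whole cultures, fewer cells of a type and less RNA per cell cannot be told apart.

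**Figure D1:**
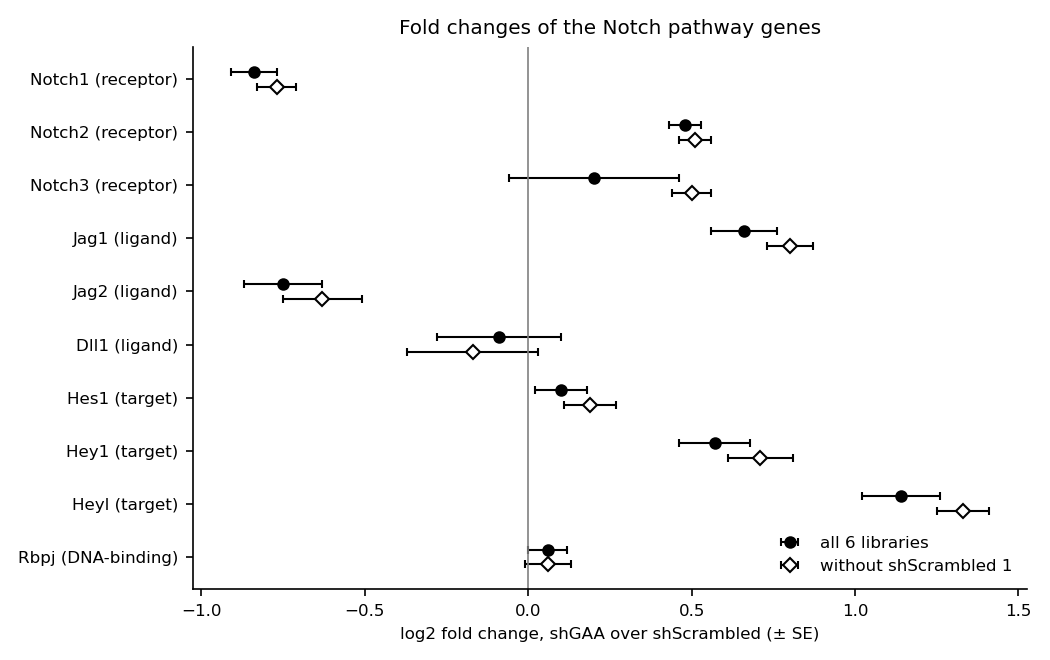
Log2 fold change of each gene, shGAA over shScrambled, with its standard error. Filled circles use all 6 libraries and open diamonds leave out shScrambled 1; Notch1 and Jag2 lie below 0, Notch2, Jag1, Hey1 and Heyl above it, and Notch3 moves most when that library is left out, to 0.50 ± 0.06.

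Among the receptors, Notch1 and Notch2 moved apart. Notch1 had 54.3, 54.8 and 52.1 CPM in the shGAA libraries 1 to 3, against 105, 91.2 and 91.9 CPM in the shScrambled libraries 1 to 3. Every shGAA library lay far below every control, and the shGAA values were nearly equal. Notch1 fell, with a log2 fold change of -0.84 ± 0.07 (SE, n = 3 each, edgeR adjusted p = 5.11e-08). Notch2, the most abundant Notch receptor gene here, had 497, 551 and 535 CPM in the shGAA libraries 1 to 3, against 397, 371 and 368 CPM in the shScrambled libraries 1 to 3. The groups did not overlap, and Notch2 rose by 0.48 ± 0.05 on the log2 scale (edgeR adjusted p = 1.16e-06), a 1.39-fold difference.

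Notch3, a receptor gene also known from vascular smooth muscle, had 153, 185 and 164 CPM in the shGAA libraries 1 to 3, against 200.4, 115 and 120.4 CPM in the shScrambled libraries 1 to 3. The highest of all 6 values was that of shScrambled 1, while the other controls lay below every shGAA library. With all libraries the log2 fold change was 0.20 ± 0.26 (95% interval -0.52 to 0.92, edgeR adjusted p = 0.611), and without shScrambled 1 it was 0.50 ± 0.06 (edgeR adjusted p = 1.66e-08). The call for Notch3 thus depends on 1 control library. The remaining mammalian receptor gene, Notch4, known mainly from endothelium, had 8 counts summed over shGAA and 11 summed over shScrambled and was not tested.

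**Figure D2:**
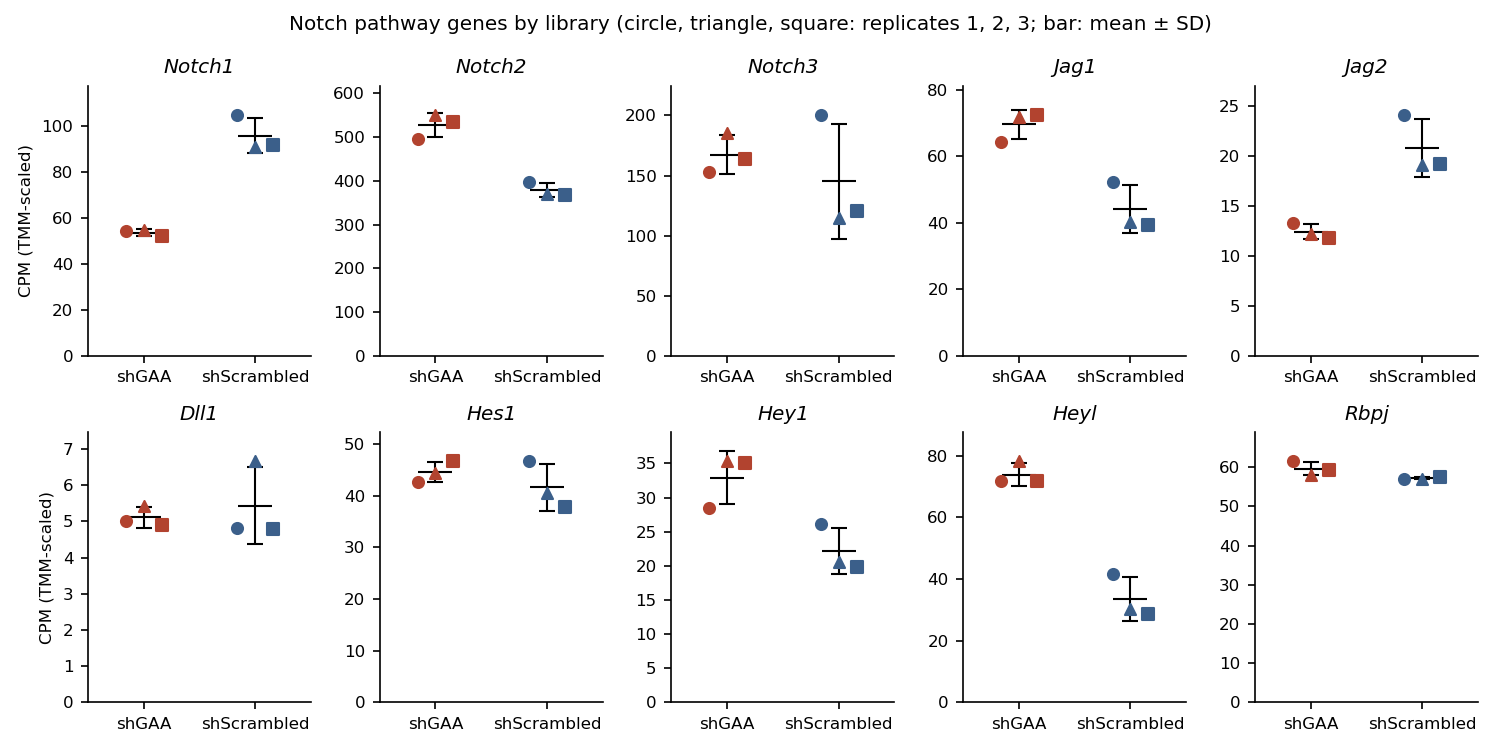
Scaled CPM of the 10 genes in each library, shGAA left of shScrambled, with the mean and SD of 3 libraries; each panel has its own axis from 0. Notch1 and Jag2 are lower in every shGAA library, Notch2, Jag1, Hey1 and Heyl are higher in every one, and shScrambled 1 (blue circle) is the highest control for Notch3 at 200.4 CPM.

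Ratios between receptor genes within a library do not depend on the scaling between libraries. The log2 ratio of Notch1 to Notch2 CPM was -3.19, -3.33 and -3.36 in the shGAA libraries 1 to 3, against -1.92, -2.02 and -2.00 in the shScrambled libraries 1 to 3. The means differed by -1.31, more than the spread within either group, and the groups did not overlap. The log2 ratio of Notch1 to Notch3 averaged -1.63 ± 0.13 in shGAA and -0.56 ± 0.33 in shScrambled (SD, n = 3 each), a difference of -1.08. For both ratios the two-sided exact permutation test gave p = 0.1, adjusted p = 0.1 over the 2 ratios, which is the smallest p that 3 against 3 libraries allow. Divided by exon length, as RPKM, Notch1 made up 4.95% to 5.54% of summed receptor RNA in shGAA and 10.6% to 11.6% in shScrambled. Notch2 made up 65.7% to 67.5% in shGAA and 53.4% to 62.4% in shScrambled.

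The Jagged ligands also moved apart. Jag1, which activates Notch on neighbouring cells, had 64.4, 71.8 and 72.4 CPM in the shGAA libraries 1 to 3, against 52.3, 40.3 and 39.4 CPM in the shScrambled libraries 1 to 3. No libraries overlapped, and Jag1 rose by 0.66 ± 0.10 on the log2 scale (edgeR adjusted p = 0.000174). Jag2, a ligand of the same family, had 13.3, 12.2 and 11.8 CPM in the shGAA libraries 1 to 3, against 24.1, 19.1 and 19.2 CPM in the shScrambled libraries 1 to 3. All shGAA libraries lay below all controls, and Jag2 fell, with a log2 fold change of -0.75 ± 0.12 (edgeR adjusted p = 0.000117). Dll1, the Delta ligand described in mouse muscle progenitors, was the least abundant gene of the 10. It had 5.01, 5.44 and 4.89 CPM in the shGAA libraries 1 to 3, against 4.83, 6.66 and 4.80 CPM in the shScrambled libraries 1 to 3, and the groups overlapped (-0.09 ± 0.19, 95% interval -0.48 to 0.31, edgeR adjusted p = 0.741). Per length, Jag1 held 78.1% to 81.3% of summed ligand RNA in shGAA and 61.5% to 66.1% in shScrambled.

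Few reads came from the other Delta genes. Dll4, a ligand of blood vessels, had 0 counts in shGAA and 7 summed over shScrambled, and Dll3, which inhibits Notch within its own cell, had 0 counts in shGAA and 1 in shScrambled. Dlk1, a Delta-like gene without the receptor-activating domain, had none in either group. A count of 0 over 3 libraries allows up to 0.102 CPM in shGAA and 0.104 CPM in shScrambled, counting error only.

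Promoter sequence was compared for the genes that moved in opposite directions, and for Rbpj, whose product binds the letters TGGGAA. RefSeq windows on GRCm38.p6, from 250 bases before to 50 after a start annotated by RefSeq, were given for 7 of the 10 genes. Distances below are counted from that start. The windows of Notch1 and Rbpj lie well inside the GENCODE gene spans given below, downstream of the outermost GENCODE start, so promoters at that start were not searched. The window of Jag2 also lies wholly inside its span, so the sequence upstream of its outermost GENCODE start was not searched either. For Dll1, 1 of the pair of windows is inside the span as well. Hes1, Hey1 and Heyl have no entry. Each window is printed 5′ to 3′ on the gene's strand, and capitals mark TGGGAA or its reverse complement TTCCCA, and the E-boxes CAGCTG, which MyoD family factors bind, and CACGTG.
Notch1, chr2:26503773-26504072, minus strand: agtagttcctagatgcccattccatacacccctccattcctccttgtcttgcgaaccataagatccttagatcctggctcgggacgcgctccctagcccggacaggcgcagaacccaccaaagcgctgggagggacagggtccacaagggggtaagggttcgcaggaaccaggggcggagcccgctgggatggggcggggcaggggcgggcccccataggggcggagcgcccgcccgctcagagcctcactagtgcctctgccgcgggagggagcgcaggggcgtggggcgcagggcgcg
Notch2, chr3:98013288-98013587, plus strand: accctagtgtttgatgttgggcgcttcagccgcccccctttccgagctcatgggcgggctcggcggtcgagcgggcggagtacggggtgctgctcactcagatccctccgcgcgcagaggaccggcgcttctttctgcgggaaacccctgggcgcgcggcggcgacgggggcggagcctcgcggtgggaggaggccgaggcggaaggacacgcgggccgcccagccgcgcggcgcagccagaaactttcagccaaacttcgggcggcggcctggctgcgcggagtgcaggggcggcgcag
Jag1, chr2:137116471-137116770, minus strand: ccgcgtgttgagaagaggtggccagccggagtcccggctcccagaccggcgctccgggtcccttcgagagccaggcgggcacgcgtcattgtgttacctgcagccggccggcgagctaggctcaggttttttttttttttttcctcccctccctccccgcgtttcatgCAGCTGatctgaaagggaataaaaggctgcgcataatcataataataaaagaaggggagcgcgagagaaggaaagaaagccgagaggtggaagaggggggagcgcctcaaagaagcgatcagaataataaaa
Jag2, chr12:112929446-112929745, minus strand: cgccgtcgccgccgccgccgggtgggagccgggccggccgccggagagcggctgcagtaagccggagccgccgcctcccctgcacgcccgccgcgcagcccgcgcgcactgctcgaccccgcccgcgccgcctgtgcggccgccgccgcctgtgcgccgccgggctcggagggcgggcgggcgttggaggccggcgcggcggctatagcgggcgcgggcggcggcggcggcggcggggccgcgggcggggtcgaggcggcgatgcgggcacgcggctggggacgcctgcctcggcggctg
Rbpj, chr5:53590096-53590395, plus strand: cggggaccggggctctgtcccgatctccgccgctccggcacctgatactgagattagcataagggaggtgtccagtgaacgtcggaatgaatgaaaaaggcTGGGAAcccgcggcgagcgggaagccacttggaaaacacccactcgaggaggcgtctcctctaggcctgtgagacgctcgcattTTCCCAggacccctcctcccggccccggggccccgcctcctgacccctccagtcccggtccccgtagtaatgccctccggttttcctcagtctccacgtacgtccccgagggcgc
Of these windows, that of Rbpj held TGGGAA, 149 bases before the start, and TTCCCA, 65 bases before it. That of Jag1 held 1 CAGCTG, 82 bases before the start, and those of Notch1, Notch2 and Jag2 held none of the 3 motifs. Among the windows not printed, 1 of the pair for Dll1 also held CAGCTG, 132 bases before the start, and Dll1 did not pass the test. Searched on both strands, TGGGAA occurred in 25.6% of all 32851 windows, CAGCTG in 16.3% and CACGTG in 7.15%. Base composition differed between the Jagged windows, with 55.7% G and C for Jag1 and 86% for Jag2, whereas those of Notch1 (68.3%) and Notch2 (73%) were closer. The windows of Dll1 had 62.7% and 56.3%. As the Jag2 window lies inside its gene span, its value does not describe the sequence upstream of the outermost GENCODE start. For Rbpj and Dll1 the table holds a second start, and for Rbpj the first is shown.

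Heyl rose most of the 10 genes. This target of Notch, which encodes a Hey-family repressor, had 71.6, 78.1 and 71.6 CPM in the shGAA libraries 1 to 3, against 41.6, 30.2 and 28.6 CPM in the shScrambled libraries 1 to 3. Every shGAA library was well above every control, and shScrambled 1 was the highest control. The log2 fold change was 1.14 ± 0.12 (95% interval 0.87 to 1.40, edgeR adjusted p = 3.9e-05), and 1.33 ± 0.08 without shScrambled 1. Hey1, its close relative, had 28.5, 35.3 and 35.0 CPM in the shGAA libraries 1 to 3, against 26.1, 20.5 and 19.9 CPM in the shScrambled libraries 1 to 3. The groups did not overlap, though shGAA 1 and shScrambled 1 were close, and Hey1 rose by 0.57 ± 0.11 on the log2 scale (edgeR adjusted p = 0.000981).

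Hes1, the Notch target used most widely as a readout and one that other signals also induce, did not pass the test. It had 42.7, 44.3 and 46.6 CPM in the shGAA libraries 1 to 3, against 46.6, 40.4 and 37.8 CPM in the shScrambled libraries 1 to 3. The groups overlapped, with a log2 fold change of 0.10 ± 0.08 (95% interval -0.07 to 0.27, edgeR adjusted p = 0.365), and 0.19 ± 0.08 without shScrambled 1 (edgeR adjusted p = 0.0504). The make-up of the targets differed accordingly. Per length, Heyl held 29.4% to 32.1% of the summed RNA of the 3 targets in shGAA and 18.4% to 20.9% in shScrambled, and Hes1 held 45.4% to 48.1% in shGAA and 58.7% to 61.9% in shScrambled. These shares were not tested.

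**Figure D3:**
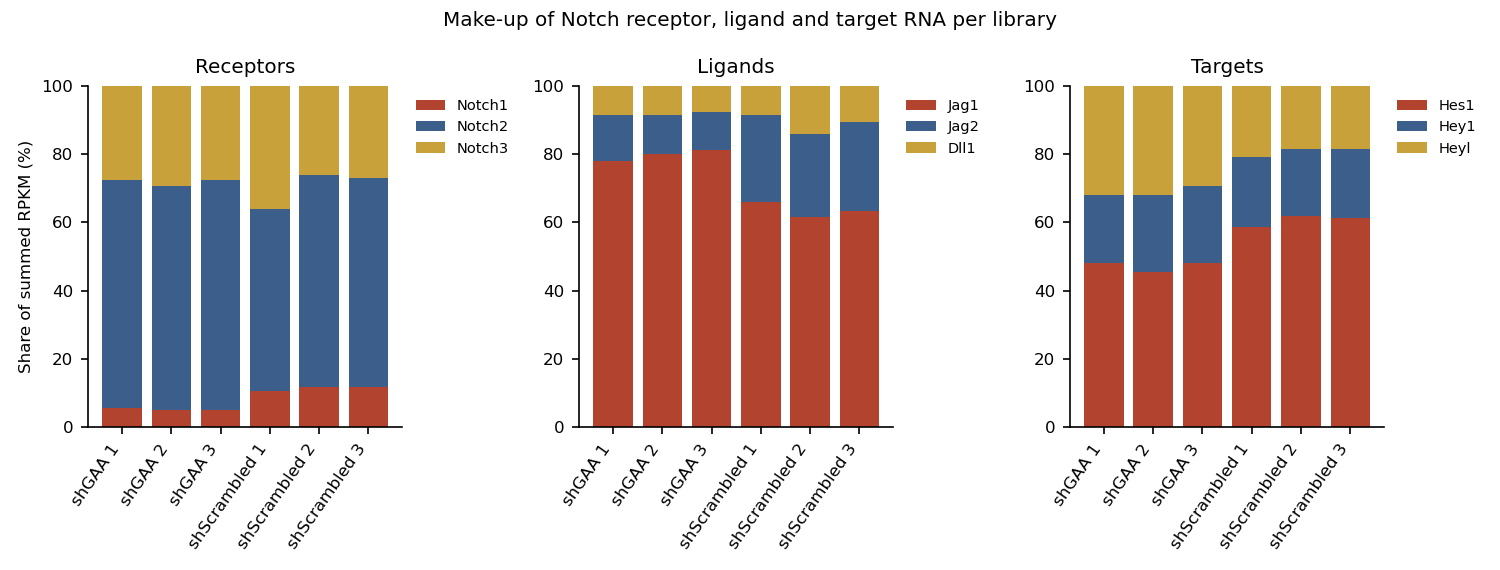
Share of each gene in the summed RPKM of the receptors, the ligands and the targets, one bar per library, shGAA left of shScrambled; Notch4, at most 0.143% of receptor RNA, is not drawn. The Notch1, Jag2 and Hes1 shares are smaller in all shGAA libraries, and the Jag1 and Heyl shares are larger.

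Rbpj had nearly the same level in all libraries. It had 61.5, 58.1 and 59.4 CPM in the shGAA libraries 1 to 3, against 57.0, 57.1 and 57.5 CPM in the shScrambled libraries 1 to 3. The groups did not overlap, but the difference was small, at 0.06 ± 0.06 on the log2 scale (95% interval -0.07 to 0.19, edgeR adjusted p = 0.457). With it, 7 of the 10 genes had groups that did not overlap, against 49.6% of all tested genes.

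Levels were ordered per length, as RPKM over the union of annotated exons. In shGAA Notch2 led with 49.0 ± 2.56, followed by Hes1 at 21.9 ± 0.967, Notch3 at 20.7 ± 1.97, Heyl at 14.4 ± 0.732, Jag1 at 11.9 ± 0.767 and Hey1 at 10.1 ± 1.17 (SD, n = 3). Rbpj, Notch1, Jag2 and Dll1 came last, at 4.68, 3.78, 1.78 and 1.21. Among neighbours in this order, the libraries of Hes1 and Notch3 alone overlapped. In shScrambled Notch2 led with 35.1 ± 1.48, followed by Hes1 at 20.4 ± 2.24 and Notch3 at 18.0 ± 5.90, which again overlapped. Jag1, Hey1, Notch1 and Heyl lay between 6.54 and 7.55 and each overlapped the next, so their order there is not resolved. Heyl had rank 4 in shGAA and rank 7 in shScrambled. With the longest coding transcript as the length, Rbpj stood at 10.9 in shGAA and 10.4 in shScrambled. Its rank was 7 in shGAA with either length, while in shScrambled it was 4 with the longest transcript and 8 with the union of exons. The ranks of Hey1 and Jag1 in shGAA, and of Jag1, Hey1, Notch1 and Heyl in shScrambled, also changed with the length used.

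In GENCODE M21 on GRCm38 the receptor genes lie at chr2:26457903-26516663 (Notch1, minus strand), chr3:98013527-98150361 (Notch2, plus strand), chr17:32120820-32166852 (Notch3, minus strand). The ligand genes lie at chr2:137081456-137116644 (Jag1, minus strand), chr12:112907819-112929776 (Jag2, minus strand), chr17:15367354-15376872 (Dll1, minus strand). The target genes and Rbpj lie at chr16:30064384-30067796 (Hes1, plus strand), chr3:8663359-8667256 (Hey1, minus strand), chr4:123233556-123249875 (Heyl, plus strand), chr5:53466152-53657362 (Rbpj, plus strand). All are protein-coding, and values are for whole genes. Some reads may not be unique to these genes. Exons on the opposite strand overlap 20.5% of the exonic bases of Dll1, 9.76% of Notch1 and 6.03% of Notch3, and Notch2 shares 5.02% with a gene on its own strand. Of the 50-base stretches of Rbpj, 10.6% occur in transcripts of other genes, among them the pseudogene Rbpj-ps3. For Hes1, Hey1, Heyl, Jag1 and Jag2 no such overlap or sharing was found. The strand setting of the counting is not stated.

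The other genes of the pathway moved in both directions, at a rate near that of all genes. Of 83 further pathway genes in the table, 64 were tested, of which 17 rose, 8 fell and 39 did not pass. The called share of 39.1% lies beside 38.2% over all tested genes, and the median log2 fold change was 0.03. Among genes that cut or trim the receptors, 2 of 9 tested rose and 1 fell. Psen2, a catalytic subunit of gamma-secretase, rose by 0.77 ± 0.13 on the log2 scale, to 11.7 ± 0.457 CPM in shGAA against 6.90 ± 0.284 in shScrambled (SD, n = 3 each, edgeR adjusted p = 0.000244). Aph1b, another gamma-secretase subunit, rose by 0.33 ± 0.10 (edgeR adjusted p = 0.0181), a call lost without shGAA 1 (edgeR adjusted p = 0.0956) or without shScrambled 3 (edgeR adjusted p = 0.0949), and reads of its close copy Aph1c may be split between them. Furin, the protease that cuts the receptor precursor, fell by 0.43 ± 0.07 (edgeR adjusted p = 6.6e-05).

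Of the genes that add sugars to the receptors, 1 of 4 tested rose. It was Rfng, a fringe glycosyltransferase, at 23.4 ± 0.725 CPM in shGAA against 15.9 ± 1.06 in shScrambled (0.55 ± 0.10, edgeR adjusted p = 0.000317), while Lfng was at 0.21 ± 0.10 (edgeR adjusted p = 0.112). Mib1, a ubiquitin ligase that drives endocytosis of ligands, was at -0.00 ± 0.06 (edgeR adjusted p = 0.984). Of 9 tested genes of receptor endocytosis and turnover, 3 rose and 2 fell. Fbxw7, which marks the cleaved receptor for degradation, fell by 0.77 ± 0.09 on the log2 scale, to 20.7 ± 1.48 CPM in shGAA against 35.4 ± 2.96 in shScrambled (edgeR adjusted p = 6.28e-06). Dtx4, a Deltex ubiquitin ligase, rose by 0.52 ± 0.07 and Nedd4, a ubiquitin ligase of membrane proteins, by 0.28 ± 0.04. Numb, which antagonises Notch in the cell that inherits it, was at 0.10 ± 0.08 (edgeR adjusted p = 0.375).

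**Figure D4:**
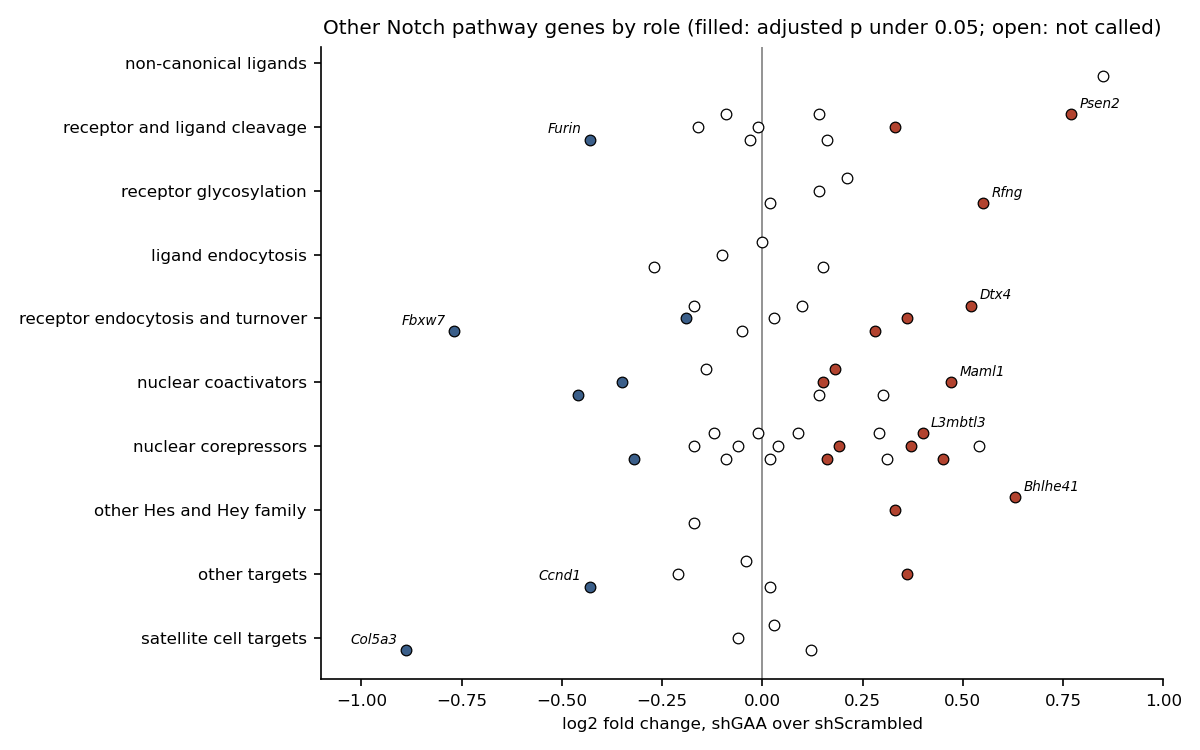
Log2 fold change, shGAA over shScrambled, of the tested pathway genes outside the 10, grouped by role; filled points passed the test, red higher and blue lower. Called genes lie on both sides of 0 in several roles, from Col5a3 at -0.89 to Psen2 at 0.77.

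Nuclear partners of RBPJ also moved both ways. Of 8 tested coactivators, 3 rose and 2 fell. Maml1, a Mastermind coactivator, rose by 0.47 ± 0.07 on the log2 scale, to 62.4 ± 2.96 CPM in shGAA against 45.1 ± 1.56 in shScrambled (edgeR adjusted p = 3.31e-05). Of the other Mastermind genes, Maml3 fell by 0.46 ± 0.13 (edgeR adjusted p = 0.0107) and Maml2 did not pass (0.30 ± 0.13, edgeR adjusted p = 0.0784). Snw1, whose product binds RBPJ and the cleaved receptor, rose by 0.18 ± 0.05, though exons on the opposite strand (Slirp) overlap 44.2% of its exonic bases. Crebbp, a histone acetyltransferase, fell by 0.35 ± 0.08. The remaining called coactivator, Ep300, rose by 0.15 ± 0.05 (edgeR adjusted p = 0.0248). Of 17 tested corepressors, 5 rose and 1 fell. The histone demethylase gene Kdm5a rose by 0.37 ± 0.06 and L3mbtl3, whose product binds RBPJ, by 0.40 ± 0.09. The Groucho genes had no common direction. Tle1 fell by 0.32 ± 0.08, while Tle2 rose by 0.45 ± 0.13 (edgeR adjusted p = 0.0105) and Tle3 by 0.16 ± 0.05 (edgeR adjusted p = 0.0331). Tle4 did not pass (0.54 ± 0.32, edgeR adjusted p = 0.192).

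Beyond the 10 genes, few of the classical targets could be tested. Hes5 and Hey2 had no count in any library. Nrarp, a feedback inhibitor of Notch, had 27 counts summed over shGAA and 18 summed over shScrambled. Pax7, the satellite cell factor, had 28 in shGAA and 18 in shScrambled, and both genes were below the filter. Hes6, which in mouse counteracts Hes1, rose by 0.33 ± 0.08 on the log2 scale (edgeR adjusted p = 0.00444), and the related repressor gene Bhlhe41 rose by 0.63 ± 0.07, to 110.5 ± 6.84 CPM in shGAA against 71.2 ± 6.42 in shScrambled (edgeR adjusted p = 1.98e-06). Among genes that Notch can activate in other cells, the cyclin gene Ccnd1 fell by 0.43 ± 0.06. Cdkn1a, the cell cycle inhibitor p21, rose by 0.36 ± 0.04. Exons on the opposite strand overlap 79.4% of the exonic bases of Nrarp, 23.4% of Ccnd1 and 19% of Bhlhe41, so some of their reads may belong to other genes. Of 4 tested genes linked to Notch in satellite cells, 1 fell. It was the collagen V gene Col5a3, at 164 ± 1.64 CPM in shGAA against 305 ± 40.5 in shScrambled (-0.89 ± 0.08, edgeR adjusted p = 8.71e-06).

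The genes whose pattern over the 6 libraries was most like that of Heyl or Notch1 were named by Pearson's r of log2 CPM. For Heyl they were Plxdc2, a membrane protein gene (r = 0.9997), Nov, of the CCN family of matrix-associated proteins (r = 0.9996), and Marcksl1, of a family of actin-linked proteins (r = 0.9980). For Notch1 they were Chrnd, the delta subunit of the muscle acetylcholine receptor (r = 0.9994), Hr, a nuclear corepressor gene (r = 0.9991), and Tbc1d1, a Rab GTPase-activating protein gene (r = 0.9980). With 6 libraries in 2 groups, these values mostly reflect the difference between the groups, and they are given as a description. Like Heyl, Nov was highest among controls in shScrambled 1, at 128 to 139 CPM in shGAA and 66.3, 46.0 and 44.6 CPM in shScrambled 1 to 3.

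Markers of the state of the cultures moved with the same groups, and their part in the Notch results was not tested. Over all tested genes, 18.5% were called higher and 19.7% lower. Of 17 tested markers of differentiated muscle, 12 fell, and the 18 listed summed to 2413 to 2632 CPM in shGAA and 3312 to 3697 CPM in shScrambled. Des held the largest part of these sums, averaging 1664 ± 82.0 CPM in shGAA and 2047 ± 37.2 in shScrambled (SD, n = 3 each). Mymk, which drives myoblast fusion, fell to 39.6 ± 4.31 CPM in shGAA against 83.5 ± 17.2 in shScrambled (SD, n = 3 each, edgeR adjusted p = 0.00425). Myog, another of these markers, fell by 0.43 ± 0.09 on the log2 scale. Of 8 tested myoblast markers, 1 rose and 3 fell, with sums of 2211 to 2356 CPM in shGAA and 2779 to 3001 CPM in shScrambled. The one that rose was Myf5, by 0.51 ± 0.10, and Myod1 was at 0.04 ± 0.07. Those that fell were Sdc4, by 1.03 ± 0.06, Msc, by 1.01 ± 0.11, and Itga7, by 0.41 ± 0.05. Itga7 held the largest part of the myoblast sums, averaging 1178 ± 58.5 CPM in shGAA and 1566 ± 51.6 in shScrambled. The lower sums thus do not stand for a fall of the whole list. Cdh15, the next largest, averaged 522 ± 29.0 CPM in shGAA and 508 ± 8.90 in shScrambled and did not pass the test, nor did Vcam1 and Sdc3. All 11 proliferation markers fell in edgeR, with sums of 1182 to 1304 CPM in shGAA and 1594 to 1800 CPM in shScrambled, and all 6 interferon-response genes rose, with sums of 201 to 285 CPM in shGAA and 38.7 to 81.9 CPM in shScrambled.

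Endothelial, leukocyte and adipocyte markers were low in both groups. The 8 endothelial markers summed to 9.12 to 11.3 CPM in shGAA and 9.07 to 11.6 CPM in shScrambled, with Tie1, Emcn and Cldn5 at 0. Of the 3 tested, 1 rose and 1 fell. Tek, the angiopoietin receptor gene, averaged 3.82 ± 0.692 CPM in shGAA and 1.52 ± 0.612 CPM in shScrambled (log2 fold change 1.32 ± 0.29, edgeR adjusted p = 0.00176). Cdh5, the gene of vascular cadherin, averaged 0.659 ± 0.331 CPM in shGAA and 1.73 ± 0.862 CPM in shScrambled, with overlapping groups (-1.35 ± 0.46, edgeR adjusted p = 0.028). The 8 leukocyte markers summed to 1.60 to 2.86 CPM in shGAA and 2.90 to 4.01 CPM in shScrambled, with Cd3e and Itgam at 0. The 4 adipocyte markers summed to at most 0.409 CPM in shGAA and 0.537 CPM in shScrambled, with Plin1 and Cidec at 0. The 5 smooth muscle and pericyte markers summed to 136 to 148 CPM in shGAA and 89.9 to 166 CPM in shScrambled, and 2 of the 3 tested fell. They were Cnn1, a smooth muscle calponin gene (log2 fold change -1.04 ± 0.29, edgeR adjusted p = 0.00931), and Cspg4, the pericyte proteoglycan NG2 (-0.48 ± 0.10, edgeR adjusted p = 0.00154). Most of the sum was Pdgfrb, a growth factor receptor gene, at 124, 127 and 117 CPM in shGAA and 59.9, 124 and 133 CPM in shScrambled (0.22 ± 0.33, edgeR adjusted p = 0.658). Pdgfrb was lowest in shScrambled 1, the control in which Notch3 was highest. The part of these markers in the Notch results was not tested, and Tek, Cdh5, Cnn1, Cspg4 and Pdgfrb were singled out after their values were seen.

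**Figure D5:**
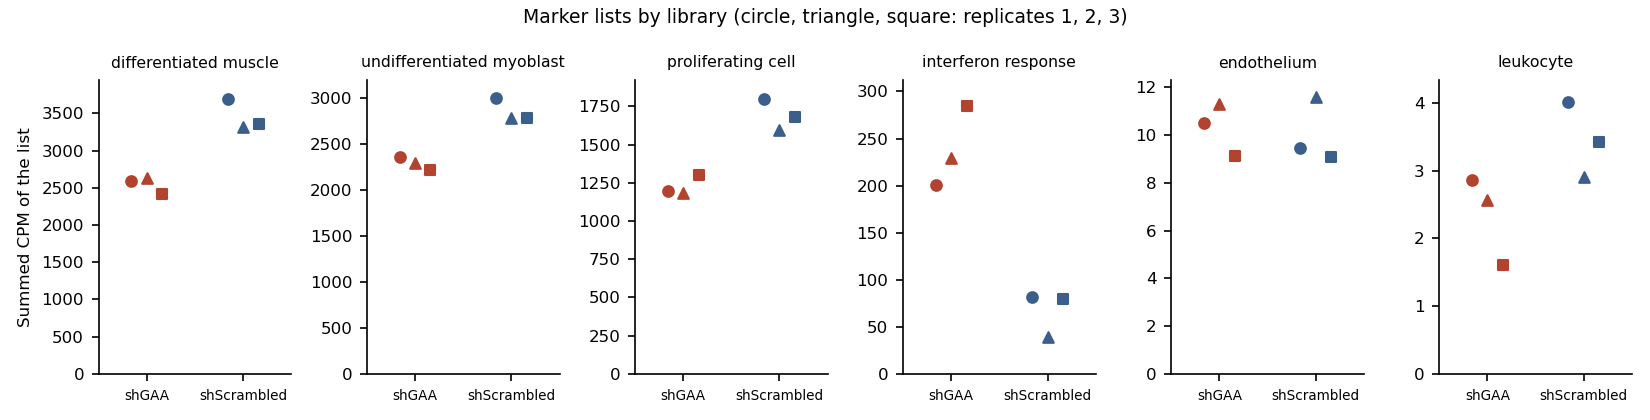
Summed scaled CPM of 6 marker lists in each library, shGAA left of shScrambled, each panel on its own axis from 0. Sums of the differentiated muscle, myoblast and proliferation markers are lower in every shGAA library, those of the interferon-response genes are higher, and those of endothelium overlap and stay under 12 CPM. Des holds the largest part of the differentiated muscle sums and Itga7 that of the myoblast sums.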

How the data were processed

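RNA of 6 C2C12 samples was sequenced from 1 ug of total RNA each, per the labels' protocols. The authors deposited raw read counts per gene symbol, 1 column per library. The submitters' processing notes name mm10, HISAT2 2.1.0, Subread, FastQC and edgeR. No annotation, and no setting for multi-mapping or strand, is given there.

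Counts were tested with edgeR 4.0.16 in R 4.3.3 (filterByExpr by group, TMM scaling, robust quasi-likelihood F-test, Benjamini-Hochberg adjustment over 11801 tested genes, threshold 0.05). The standard error is the size of the coefficient over the square root of F. RPKM is scaled CPM per kilobase of merged GENCODE M21 exons (GRCm38, the mm10 build). A CPM of 1 is about 10 counts here, so genes near the filter carry large counting error. Mymk and Mymx are listed in the table under older symbols, matched through RefSeq. The code was tested on simulated counts for 11801 genes, 200 of which were made to differ. It found 82% of the differences of 1.5 times and 97% of those of 2 times. Unchanged genes made up 11.4% of its calls, above the rate set by the threshold of 0.05. Their unadjusted p was under 0.05 in 5.05% of cases. The real data had 4512 calls, so the simulated rate of false calls may not carry over.

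Alternatives were DESeq2 size factors, library size alone, no filter, a mean of at least 5 CPM, a non-robust fit, the replicate number as a block, DESeq2 1.42.0, voom in limma 3.58.1, and leaving out each library. The 10 genes and the lists were chosen with earlier results of these data known. Besides the 10 genes, Gaa, fixed pathway and muscle genes and up to 3 called genes per role (smallest adjusted p) were named, and for Heyl and Notch1 the 3 genes with the highest r among those with a mean of at least 5 CPM (pseudocount 0.5 CPM), without clone symbols. The sets of other cell types were textbook markers. Maml2, Maml3, Ep300, Tle2, Tle3, Tle4, Sdc4, Msc and Itga7 were named after their values were seen, and their values under the alternatives are not given.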

Additional observations from a re-analysis of the deposited data

How the results depend on the processing

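The counts of called Notch genes were stable: 4 to 5 rose and 2 fell over the 14 alternatives. Of the other pathway genes, 14 to 22 rose and 6 to 11 fell. Over all tested genes, library size as the only scaling gave 2809 higher and 1872 lower genes, so that higher genes made up 60.0% of calls, against 48.4% with TMM, and shifted the median log2 fold change by 0.05. No pairing by replicate number was seen: same-numbered libraries had correlations of deviations of -0.04, 0.06 and -0.02, and not every library correlated best with its own number. With 3 libraries per group and shScrambled 1 apart from the other controls, these correlations cannot exclude that same-numbered samples were handled together. With the replicate block 2037 genes rose and 2197 fell, and 4 and 2 of the Notch genes. Of 630 values for 45 named genes under the alternatives, 615 kept direction and side of the threshold. Notch3 was called higher without shScrambled 1 alone (log2 fold change 0.50, range 0.06 to 0.50 over left-out libraries). Myh3 lost its call without any 1 shGAA library (edgeR adjusted p = 0.0755 to 0.0996). Values near 0 changed sign: Dll1 ranged from -0.17 to 0.08, Mib1 from -0.05 to 0.04 and Myod1 from -0.02 to 0.09 over left-out libraries, and Mib1 was at 0.05 with library size only and 0.00 with the filter at 5 CPM. The cause was not tested. The length of the longest coding transcript, an alternative chosen after seeing the data, put Notch1 at 7.39% of receptor RNA in shGAA and 15.8% in shScrambled. Depth limits Notch4, Dll4, Nrarp and Pax7, which had under 30 counts per group.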
